A study of Mus musculus with 15 samples.

Results

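The transcripts of the mouse mitochondrial genome were followed in quadriceps muscle of adult offspring whose parents differed in diet and in exercise during pregnancy. The genes were all rows of the deposited table whose Ensembl identifier carries, in GENCODE M21, a symbol that starts with mt-. That rule found 37 of 50686 genes, namely 13 protein-coding, 22 tRNA and 2 rRNA genes, all on chromosome M. Of these, 11 were measured, which here means an average of at least 10 normalized counts over the 15 libraries. A normalized count is a number of reads divided by a size factor of the library.

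Mitochondrial DNA is a small circle present in many copies per cell, and skeletal muscle, which relies on oxidative phosphorylation, is rich in it. The mitochondrial RNA polymerase Polrmt, with the factors Tfam and Tfb2m, reads both strands into long precursors, and the tRNAs that lie between most of the other genes are cut out to release the mRNAs and rRNAs. The mRNAs encode core subunits of complexes I, III, IV and V of the respiratory chain, whose other subunits, like all of complex II, come from nuclear genes. One strand of the circle carries most of the genes, and mt-Nd6 is the only mRNA read from the other.

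All animals were C57BL/6 offspring sampled at 10 months of age, and every group was fed chow and kept sedentary from birth. The controls came from chow-fed parents with a sedentary dam. In the maternal groups the dam ate a 60% high-fat diet for 6 weeks from 8 weeks of age, was mated with a lean male of 14 weeks, and then was housed in pregnancy with a locked running wheel (sedentary) or a free one (exercised). In the paternal groups the sire ate that diet for 6 weeks and was mated with a lean dam of 14 weeks, which was sedentary or exercised in the same way. Each of the 5 groups held 3 libraries, and the control group served the maternal and the paternal arm, so that all differences from control share its libraries. The sources used here do not say whether animals of a group were littermates, so p-values cover only the spread among these 15 samples.

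Libraries held 18457663 to 26981745 counted reads. The 6 skeletal muscle markers, such as Acta1 and Ckm, summed to between 156397 and 213097 CPM (counts per total reads of the library, scaled) in every library. Control replicate 2 and maternal sedentary replicate 3 stood apart, with at least 1 read for 17699 and 17581 genes against 19062 to 20771 in the other 13 libraries. The 18 hepatocyte markers, each with reads in some library, summed to 157 CPM in control replicate 2, 449 in maternal sedentary replicate 3, 3734 in maternal sedentary replicate 2 and 226 in paternal sedentary replicate 1, against 9.15 to 31.3 in the other 11. The part of these features in the results below was not tested. Where leaving out such a library turned or greatly moved a median difference of the mitochondrial genes between groups, that value is given. The spread, shares and ratios are also given without the pair with few detected genes. Counts and medians of the lists of nuclear genes and markers are given over all 15 libraries only.

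Of the 13 mRNAs, 7 were measured. They were mt-Nd1, mt-Nd2, mt-Nd4, mt-Nd5 and mt-Nd6 of complex I, the NADH dehydrogenase, mt-Cytb of complex III and mt-Co1, the catalytic subunit of complex IV. The other 6 lie together at chrM:7013-10173 (GRCm38). They are mt-Co2 and mt-Co3 of complex IV, mt-Atp6 and mt-Atp8 of complex V, the ATP synthase, and mt-Nd3 and mt-Nd4l of complex I. These 6 held 5 reads over all 15 libraries together and at most 2 in any library, and 4 of them were listed at 0 throughout. Their neighbours on both sides, mt-Co1 and mt-Nd4, held 2511507 and 1055948 reads. No mRNA of complex V was therefore measured, and the levels of these 6 transcripts are not known from the table.

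Of the 6 unmeasured mRNAs, 5 have an annotated nuclear copy that is the same almost letter for letter. Pseudogenes annotated at chr1:24611535-24616197, on the minus strand, copy mt-Nd4 (Gm28439), mt-Nd4l (Gm10222), mt-Nd3 (Gm28438), mt-Co3 (Gm28437), mt-Atp6 (Gm10925), mt-Co2 (Gm28661) and mt-Co1 (Gm29216). Over the 7 copies 4142 of 4149 bases were identical to the mitochondrial gene. The copy of mt-Nd4 covered 63.6% of its gene and that of mt-Co1 31.8%. The differences fell in 2 places, and both are shown here because they are the only ones within the aligned bases. The first is the start of mt-Nd3, at chrM:9459-9518 and chr1:24613060-24613119, with the differing base in capitals:
mt-Nd3 stretch: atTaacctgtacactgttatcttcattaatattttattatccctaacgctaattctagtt
Gm28438 stretch: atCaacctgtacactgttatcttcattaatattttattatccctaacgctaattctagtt
Counted from 1 at the first base of mt-Nd3, the substitution is T3C.

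The second place is where the copy of mt-Co1 begins, at chrM:6381-6440 and chr1:24616138-24616197, again with differing bases in capitals:
mt-Co1 stretch: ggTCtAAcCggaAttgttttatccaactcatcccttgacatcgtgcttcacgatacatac
Gm29216 stretch: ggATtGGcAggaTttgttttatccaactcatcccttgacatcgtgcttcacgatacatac
Counted from the first base of mt-Co1, these are T1056A, C1057T, A1059G, A1060G, C1062A and A1066T. Beyond them the copy of mt-Co1 had no further difference.

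Reads were 100 bases long and single-ended, so each gene was divided into all its 100-base windows and each window was sought in every other annotated transcript. The share of windows found elsewhere was 99.5% for mt-Co2, 99.5% for mt-Atp6, 99.9% for mt-Co3, 97.6% for mt-Nd3 and 98.5% for mt-Nd4l. For measured mRNAs it was 60.8% in mt-Nd4 (777 of 1279 windows), 30.8% in mt-Co1 and 3.19% in mt-Nd2, and 0% in mt-Nd1, mt-Nd5, mt-Nd6, mt-Cytb and both rRNAs. The 7 pseudogenes of chromosome 1 were nearly empty as well, with 84 reads over all libraries together and at most 7 for 1 copy in 1 library. The sources used here do not say how reads that match several places were counted.

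mt-Atp8 is the exception, since none of its windows recurred in another annotated transcript, and yet it was listed at 0 in all 15 libraries. On chromosome M, 230 bases separate mt-Co2 from mt-Atp6, and mt-Atp8 begins in them. On chromosome 1, 233 bases without an annotated gene (chr1:24614652-24614884) separate the copies of mt-Co2 and mt-Atp6, and their sequence was not analysed here. The last bases of mt-Atp8 are also the first of mt-Atp6, in another reading frame. This overlap of 43 bases, chrM:7927-7969, is shown with the start codon of mt-Atp6 and the last codon of mt-Atp8 in capitals:
mt-Atp8 and mt-Atp6 overlap: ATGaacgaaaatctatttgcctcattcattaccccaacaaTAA
Nor do they say how reads over 2 overlapping genes were counted. The overlaps of mt-Nd4l with mt-Nd4 (7 bases) and of mt-Nd5 with mt-Nd6 (14 bases, on opposite strands) raise the same limit.

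A second group of copies, on chromosome 2, is less alike. Gm13340, a copy of mt-Co1 at chr2:22588103-22589647, shared 80 windows with it and held 851 reads, 14 to 88 per library. Gm13341, a copy of mt-Co2, held 257 reads, and Gm13339, a copy of mt-Nd2, held 11.

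Among the tRNA genes 2 of 22 were measured. mt-Tc, the tRNA for cysteine at chrM:5192-5257, averaged 102 normalized counts, and mt-Tp, the tRNA for proline at chrM:15356-15422, averaged 59.5. Both are read from the minus strand and are printed because they are the only tRNAs behind the values given below, with the anticodon in capitals:
mt-Tc: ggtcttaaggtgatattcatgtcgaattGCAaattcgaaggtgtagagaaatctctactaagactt
mt-Tp: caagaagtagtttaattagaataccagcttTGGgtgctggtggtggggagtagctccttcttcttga
All 22 tRNA genes, with 59 to 75 bases, are shorter than a read. The other 20 held 24 reads in all libraries together and at most 3 for 1 gene in 1 library, and 15 were listed at 0 throughout. The highest of them, the leucine tRNA mt-Tl1, averaged 0.73. mt-Tc borders 32 bases with no annotated gene, and mt-Tp is the last gene before the control region. Reads of a mature tRNA, of a precursor or of another molecule over the same place cannot be told apart in a count per gene, so the tRNA values are not levels of mature tRNA. Whether counting used the strand is not given either, and without it reads of mt-Nd6, mt-Tc and mt-Tp cannot be told from precursor RNA of the opposite strand.

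**Figure D1:**
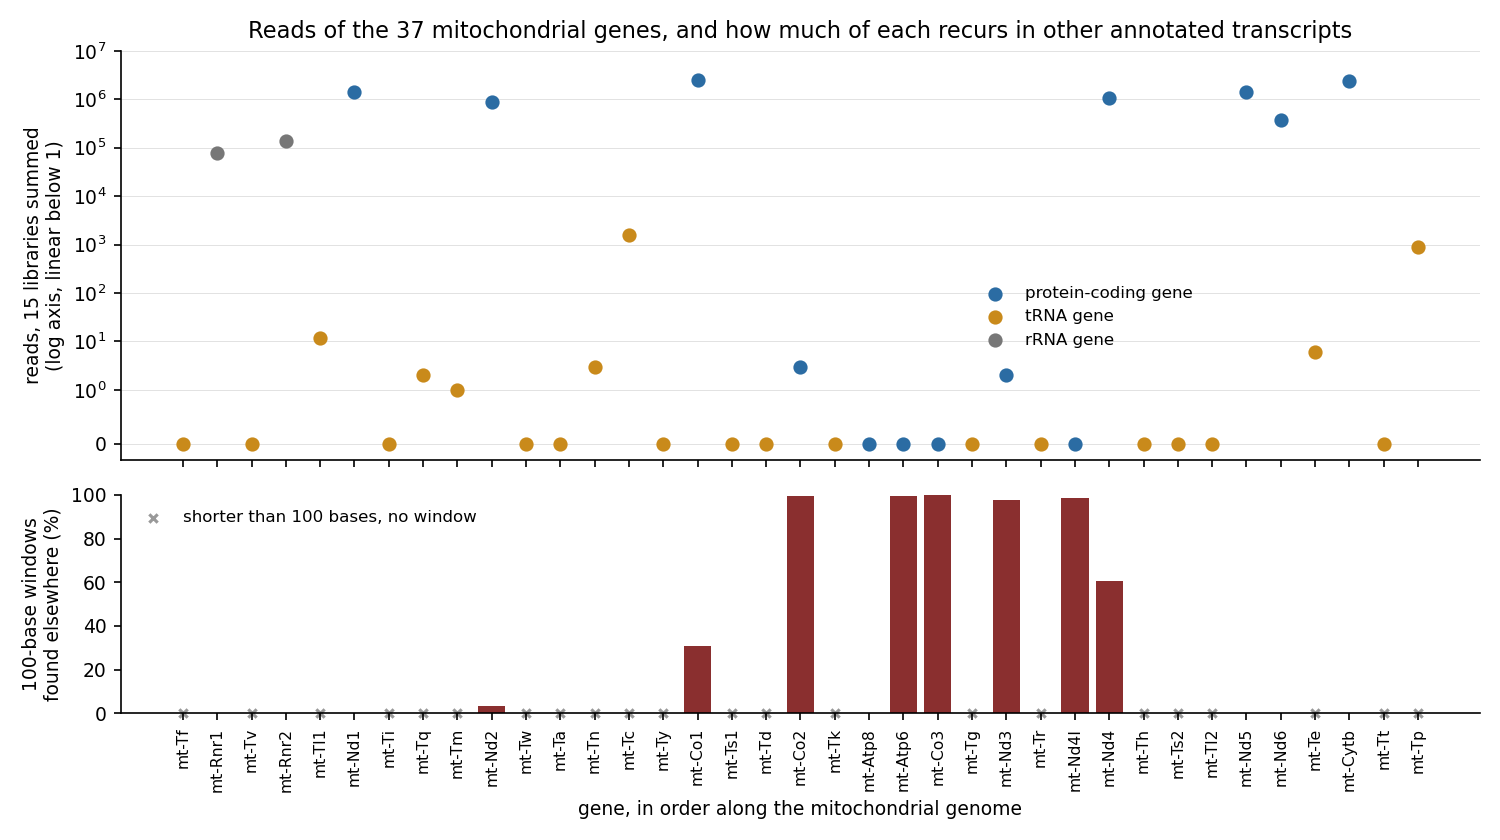
Reads of each of the 37 mitochondrial genes summed over 15 libraries (top, log axis that is linear below 1) and the percentage of the gene's 100-base windows found in other annotated transcripts (bottom), in order along the genome. The 6 mRNAs from mt-Co2 to mt-Nd4l lie at 3 reads or fewer, and 5 of them have 97.6% or more of their windows elsewhere.

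Per whole length of the gene, mt-Cytb was the most abundant of the measured genes. It averaged 6115 ± 2068 RPKM (reads scaled to the library's total and the gene's length; SD over 15 libraries), followed by mt-Co1 at 4756 ± 1673 and mt-Nd1 at 4382 ± 1538. mt-Cytb was above mt-Co1 in 15 of 15 libraries, and mt-Co1 was above mt-Nd1 in 14. mt-Nd2, mt-Nd4, mt-Nd5 and mt-Nd6 formed a lower tier at 2432, 2240, 2224 and 2102, below mt-Nd1 in 15 of 15 libraries for mt-Nd2. Within that tier mt-Nd2 was above mt-Nd4 in 12 of 15 libraries, mt-Nd4 above mt-Nd5 in 8 and mt-Nd5 above mt-Nd6 in 10. The rRNAs mt-Rnr2 and mt-Rnr1, the large and small ribosomal RNAs of the mitochondrial ribosome, stood at 255 ± 112 and 234 ± 96.7 in these rRNA-depleted libraries, and depletion sets how much of them is left.

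The order of the mRNAs depended on how length was counted. When reads were divided by the number of windows found nowhere else, mt-Co1 came first at 7348, above mt-Cytb (6695) in 14 of 15 libraries. mt-Nd4 then stood at 6150, between mt-Cytb and mt-Nd1 (4888), while mt-Nd2, mt-Nd6 and mt-Nd5 stayed lowest at 2777, 2597 and 2352. The second scale applies if reads that match several places were left out of the counts, and the first if they were not. The 6 unmeasured mRNAs held 5 reads in all libraries together and the 7 copies on chromosome 1 held 84. Which scale applies was not tested. On both scales mt-Cytb, mt-Co1 and mt-Nd1 were above mt-Nd2, mt-Nd5 and mt-Nd6.

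The mRNAs varied widely between libraries, also within groups, and they varied together. Each mRNA spanned a fold of 2.98 (mt-Nd4) to 4.47 (mt-Nd6) between its lowest and highest library, with a coefficient of variation of 28.8% to 35.8%. The median coefficient of variation was 18.7% over the 13499 genes tested and 13.9% over 196 other genes with at least 10000 normalized counts on average. The lowest libraries were maternal sedentary replicate 3 and control replicate 2 for 7 of 7 mRNAs, the same libraries in which the fewest genes were detected. Without this pair each mRNA spanned a fold of 2.04 (mt-Nd5) to 2.70 (mt-Nd6), with a coefficient of variation of 18.0% to 23.6%, against medians of 15.96% and 12.8% over the same sets of genes in these 13 libraries. The lowest of the 13 was then paternal sedentary replicate 3 for 7 of 7 mRNAs.

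mt-Co1, at chrM:5328-6872, shows the pattern. Control replicates stood at 149267, 76628 and 191262 normalized counts, and maternal sedentary replicates at 170393, 144612 and 68929. Maternal exercised replicates stood at 227004, 142634 and 160968. Paternal sedentary replicates stood at 227414, 214203 and 105964, and paternal exercised replicates at 171447, 187307 and 204835. One library in each of the 3 groups from sedentary dams was far below its companions, and the paternal exercised libraries lay closest together. Paternal exercised libraries were all above maternal sedentary ones, by a narrow margin, and every other pair of groups overlapped. How many of all genes separate in this pair of groups was not counted, here or in the paragraphs below. mt-Cytb (chrM:14145-15288) went from 62544 in maternal sedentary replicate 3 through a median of 167583 to 210039 in paternal exercised replicate 3.

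In complex I, mt-Nd1 (chrM:2751-3707) went from 37874 in maternal sedentary replicate 3 through a median of 101696 to 127300 in paternal sedentary replicate 1. mt-Nd2 (chrM:3914-4951) went from 19520 through 59179 to 79891, mt-Nd4 (chrM:10167-11544) from 30606 through 69766 to 91231 and mt-Nd5 (chrM:11742-13565) from 36753 through 99177 to 123339. The lowest of these was maternal sedentary replicate 3 each time, followed by control replicate 2, while the highest was maternal exercised replicate 1 for mt-Nd2, paternal sedentary replicate 1 for mt-Nd4 and paternal exercised replicate 3 for mt-Nd5.

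mt-Nd6 (chrM:13552-14070, minus strand) varied most among the mRNAs. It stood at 21989, 8418 and 25789 normalized counts in controls and at 28375, 29022 and 35697 in paternal exercised libraries. It stood at 25791, 20937 and 8331 in maternal sedentary libraries and at 37202, 22135 and 25185 in maternal exercised ones. The paternal sedentary libraries had 31568, 28353 and 13787. The paternal exercised libraries were all above the control and the maternal sedentary ones, and every other pair of groups overlapped. Of all genes, 11.7% were higher in paternal exercised than in control libraries with no overlap. Against maternal sedentary libraries that percentage was not counted.

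The rRNAs followed the mRNAs. mt-Rnr2 (chrM:1094-2675) stood at 6484, 3955 and 8976 normalized counts in controls, at 8402, 6758 and 3793 in maternal sedentary and at 15567, 7105 and 7870 in maternal exercised libraries. It stood at 13766, 11616 and 5656 in paternal sedentary and at 10143, 11529 and 11703 in paternal exercised libraries. The paternal exercised libraries were again all above the control and the maternal sedentary ones, and maternal exercised replicate 1 was the highest of the 15. mt-Rnr1 (chrM:70-1024) went from 1950 to 8048 between the same extreme libraries. The ratio of mt-Rnr2 to mt-Rnr1 reads went from 1.62 in maternal exercised replicate 3 to 2.20 in paternal exercised replicate 2, with group means of 1.76 to 1.89.

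The tRNA genes rest on far fewer reads. mt-Tc stood at 97.5, 19.2 and 92.6 normalized counts in controls, 69.9, 69.4 and 40.0 in maternal sedentary and 254, 51.0 and 78.9 in maternal exercised libraries. It stood at 168, 149 and 37.4 in paternal sedentary and at 103, 171 and 122 in paternal exercised libraries. Its fold of 13.3 between the highest and lowest library was the widest of the 11 genes, and the paternal exercised libraries lay above all control and maternal sedentary ones. mt-Tp went from 29.5 in paternal sedentary replicate 3 to 107 in paternal sedentary replicate 1, so that its extremes fell within 1 group.

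**Figure D2:**
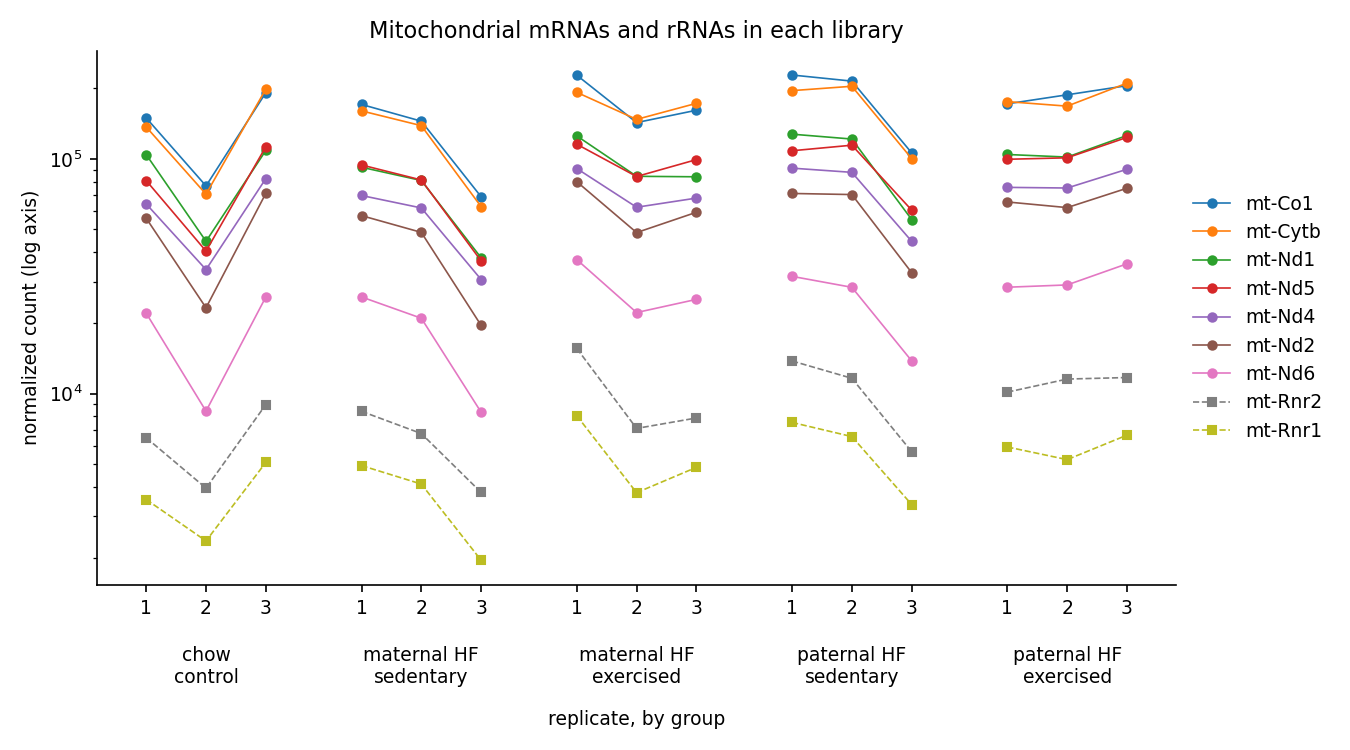
Normalized counts (log axis) of the 7 measured mRNAs (circles) and both rRNAs (squares) in each of 15 libraries, by group and replicate; lines join the values of a gene within a group and mark no order. Control replicate 2, maternal sedentary replicate 3 and paternal sedentary replicate 3 are the low libraries of their groups for every gene drawn.

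Summed over the 37 genes, mitochondrial reads made up 1.09% to 4.39% of a library, with a median of 3.01%. The group means were 2.55 ± 1.27% in controls (SD, n = 3), 2.22 ± 0.99% in maternal sedentary, 3.35 ± 0.88% in maternal exercised, 3.39 ± 1.35% in paternal sedentary and 3.46 ± 0.52% in paternal exercised libraries. Paternal exercised libraries, from 3.04% to 4.05%, lay above maternal sedentary ones, from 1.09% to 2.97%, and every other pair of groups overlapped, among them paternal exercised libraries and controls (1.30% to 3.84%). Counting error was at most 0.0089 percentage points (95% Wilson interval, half-width), an interval that covers counting error only. Without control replicate 2 the other 2 controls averaged 3.17%, and without maternal sedentary replicate 3 the other 2 libraries of that group averaged 2.78%. At least 97.3% of the mitochondrial reads of each library came from the 7 mRNAs. In muscle RNA, fewer mitochondria, fewer DNA copies, less transcript per copy and fewer fibres of a type cannot be told apart.

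**Figure D3:**
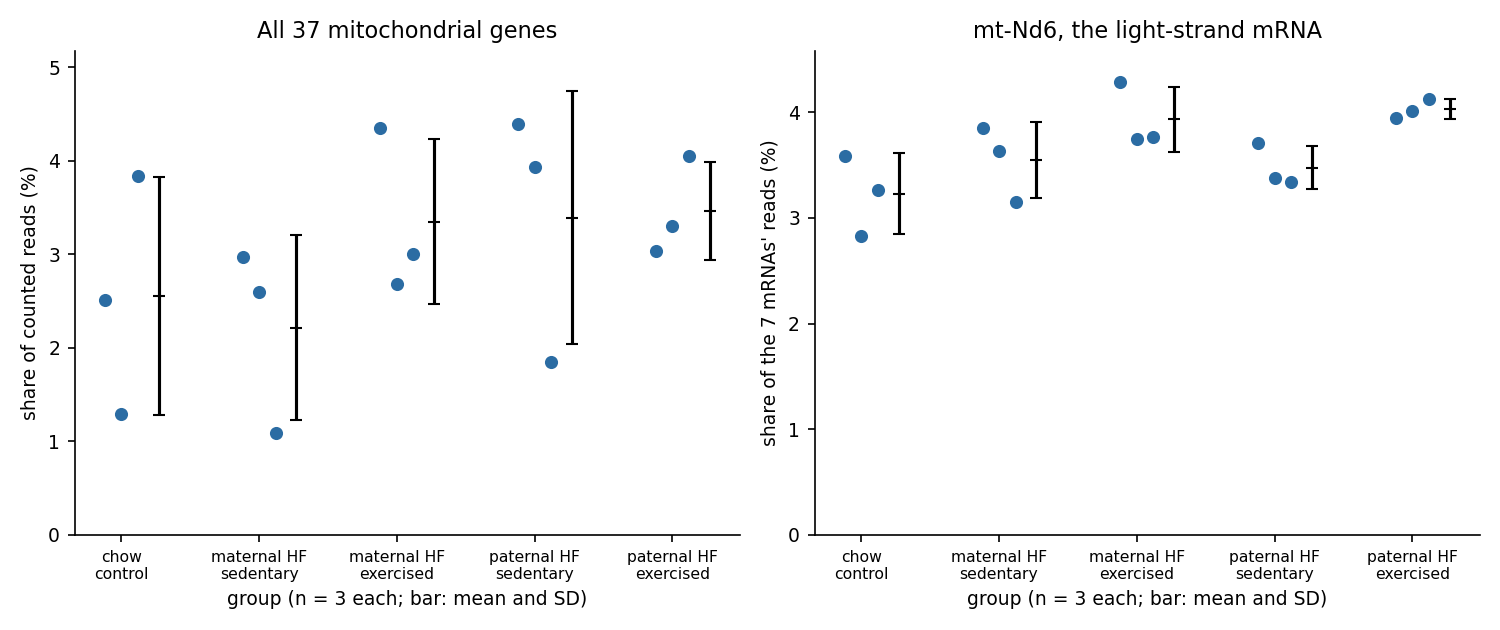
Left, percentage of a library's counted reads from the 37 mitochondrial genes; right, percentage of the reads of the 7 mRNAs that came from mt-Nd6; points are libraries and bars the mean and SD of 3. On the left the groups overlap, except paternal exercised (3.04% to 4.05%) and maternal sedentary (1.09% to 2.97%); on the right the paternal exercised libraries (3.94% to 4.13%) lie above the control (2.83% to 3.59%) and paternal sedentary libraries (3.34% to 3.71%).

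The comparisons asked whether a high-fat diet of either parent, and exercise of the dam in pregnancy, left a difference in these transcripts. Differences are log2 of the normalized count plus 1, tested with limma in 1 fit over all 15 libraries. None of the 11 measured genes passed an adjusted p of 0.05 in any comparison, and neither did any of the 13499 genes tested (0% called in each). edgeR and limma voom also called 0 genes, and DESeq2 called 0 to 65 per comparison of groups, none of them mitochondrial. The numbers of genes with an unadjusted p under 0.05 were 546 (4.04%) for maternal sedentary against control, 1288 (9.54%) for maternal exercised against sedentary and 1183 (8.76%) for maternal exercised against control. They were 387 (2.87%) for paternal sedentary against control, 508 (3.76%) for paternal exercised against sedentary and 1850 (13.7%) for paternal exercised against control. A test of any difference over the 5 groups gave an adjusted p (limma) of 0.715 to 0.817 for the 11 genes, against an unadjusted share of 6.71% of all genes.

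With a high-fat dam that stayed sedentary, mitochondrial transcripts did not differ from control beyond the spread. The median difference of the 11 genes was -0.12, against 0.01 over all genes, and 2 of 11 had a higher mean, where 53% of all genes did. Single genes ran from -0.28 (mt-Nd1) to 0.17 (mt-Tp). The median depended on single libraries in both directions. It became -0.53 without control replicate 2, -0.37 without maternal sedentary replicate 1 and -0.26 without maternal sedentary replicate 2, but 0.27 without maternal sedentary replicate 3, 0.18 without control replicate 3 and -0.02 without control replicate 1. Without both libraries with few detected genes it stayed at -0.12.

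With exercise of the high-fat dam, 11 of 11 genes had higher means than in the sedentary group (50.4% of all genes), with a median of 0.60 against 0.00 over all genes. mt-Nd6 differed by 0.73 ± 0.44 (SE), mt-Nd2 by 0.69 ± 0.43, mt-Rnr2 by 0.67 ± 0.38 and mt-Cytb by 0.60 ± 0.38. The smallest difference was that of mt-Tp, 0.14 ± 0.39. Adjusted p (limma) ran from 0.534 (mt-Rnr2) to 0.892 (mt-Tp), and the groups overlapped for every gene, while 8.56% of all genes had higher values with no overlap. The median became 0.35 without maternal exercised replicate 1, 0.19 without maternal sedentary replicate 3 and 0.09 without the 4 libraries with hepatocyte markers, 2 of which are maternal sedentary. Against control, maternal exercised libraries had a median difference of 0.45 (11 of 11 higher, 52.5% of all genes), which became 0.05 without control replicate 2.

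With a high-fat sire and a sedentary dam, the median difference from control was 0.41 (11 of 11 higher, 51% of all genes), with single genes from 0.25 (mt-Nd1) to 0.80 (mt-Tc). It became -0.04 without control replicate 2 and -0.20 without the 4 libraries with hepatocyte markers. Exercise of the lean dam gave a median of 0.22 against the paternal sedentary group (11 of 11 higher, 51.8% of all genes), which became -0.18 without paternal sedentary replicate 3. The difference between the exercise effects of the maternal and the paternal arm had a median of 0.39 (10 of 11 higher, 49.6% of all genes). Of all genes, 1.8% had an unadjusted p under 0.05 by limma, and the adjusted p (limma) was 0.999 for each of the 11 genes. The median of this difference turned to -0.03 without maternal sedentary replicate 3 and to -0.30 without the 4 libraries with hepatocyte markers.

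The mean of the paternal exercised group was the highest of the 5 groups for 11 of 11 genes, although its median difference from paternal sedentary libraries was -0.18 without paternal sedentary replicate 3. The lowest mean was that of maternal sedentary libraries for 9 genes and of controls for 2. Against control its median difference was 0.58 (11 of 11 higher, 49.9% of all genes). mt-Tc differed by 1.19 ± 0.67 (SE), mt-Nd6 by 0.87 ± 0.44, mt-Rnr2 by 0.86 ± 0.38, mt-Rnr1 by 0.76 ± 0.38 and mt-Tp by 0.65 ± 0.39, and these 5 genes did not overlap with control, as was so for 11.7% of all genes in the higher direction. The 6 other mRNAs differed by 0.47 (mt-Nd1) to 0.58 (mt-Nd5) and overlapped. The lowest adjusted p (limma) was 0.346, for mt-Rnr2, whose unadjusted p was 0.0400. The median became 0.17 without control replicate 2. All these differences from control rest on the same 3 control libraries, and the genes share their libraries, so their common direction is no count of independent results.

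**Figure D4:**
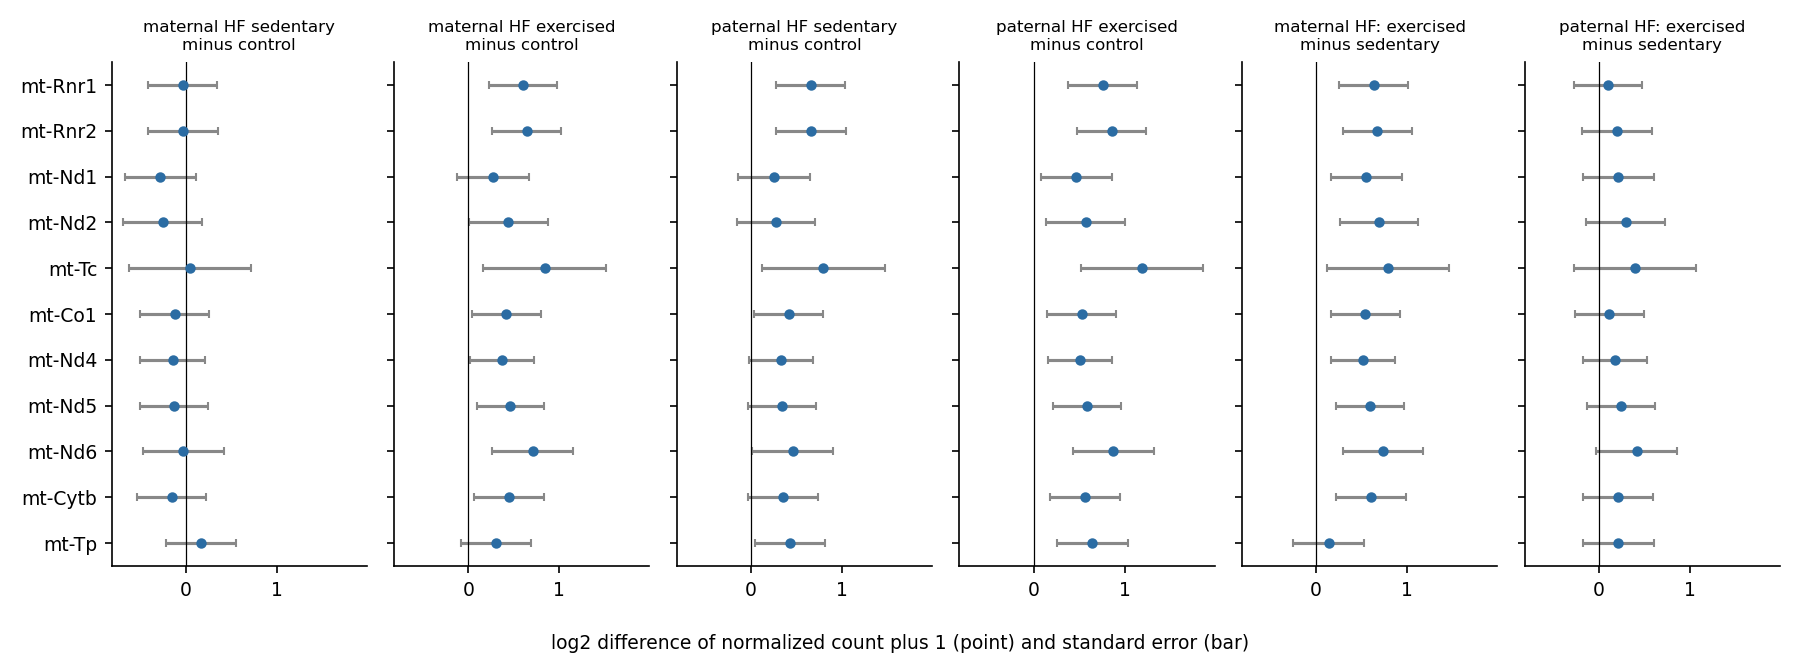
Log2 difference (point) and standard error (bar) of each of the 11 measured mitochondrial genes, in order along the genome, for 6 comparisons of groups (n = 3 each). In maternal sedentary minus control the points lie around 0, from -0.28 to 0.17; in maternal exercised minus sedentary they lie from 0.14 to 0.79, and no gene passed an adjusted p of 0.05.

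Relative to each other the mRNAs were far steadier than their sum. Within the reads of the 7 mRNAs, mt-Co1 made up 25.1 ± 0.97% (SD over 15 libraries), mt-Cytb 23.9 ± 1.00% and mt-Nd4 10.6 ± 0.37%, with coefficients of variation of 3.87%, 4.17% and 3.49%. The shares of mt-Nd5, mt-Nd2 and mt-Nd1 varied by 4.02%, 6.18% and 6.73%. mt-Nd6 made up 3.64 ± 0.39% and varied most, by 10.8%. Since mt-Nd6 is the only mRNA of its strand, its share is given in each library. It was 3.59%, 2.83% and 3.27% in controls, 3.85%, 3.63% and 3.15% in maternal sedentary and 4.29%, 3.75% and 3.77% in maternal exercised libraries. It was 3.71%, 3.38% and 3.34% in paternal sedentary and 3.94%, 4.01% and 4.13% in paternal exercised libraries.

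The share of mt-Nd6 was higher in both exercised groups than in control with no overlap, and higher than in paternal sedentary libraries with no overlap. Maternal exercised and sedentary libraries overlapped, at 3.93 ± 0.31% against 3.54 ± 0.36% (SD, n = 3). Control replicate 2 and maternal sedentary replicate 3, the lowest libraries in total mitochondrial reads, also had the lowest mt-Nd6 shares, and the other 2 control libraries still lay below all exercised ones. These shares are a description and were not tested. Among the other mRNAs, the share of mt-Nd2 was also higher in paternal exercised (8.56% to 9.10%) than in paternal sedentary libraries (7.93% to 8.38%). Of all genes, 11.7% had higher normalized counts in paternal exercised than in control libraries with no overlap. For the other pairs of groups named here that percentage was not counted. It refers to normalized counts, and no such percentage was counted for shares within a set of genes. The 2 rRNAs together gave 1.85 ± 0.25 reads per 100 mRNA reads in controls and 2.22 ± 0.10 in paternal exercised libraries, with 2.02 ± 0.14, 2.16 ± 0.49 and 2.28 ± 0.19 in maternal sedentary, maternal exercised and paternal sedentary libraries.

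Nuclear genes for subunits of the same complexes varied much less and in another order. The summed normalized counts of 36 nuclear complex I genes spanned a fold of 1.26 between libraries, those of 9 complex III genes 1.29, of 14 complex IV genes 1.34 and of 15 complex V genes 1.21, with coefficients of variation of 7.40%, 7.59%, 8.70% and 6.22%. The summed 7 mitochondrial mRNAs spanned a fold of 3.28 and varied by 30.2%. All 4 nuclear sums were highest in control replicate 2, where the mitochondrial mRNA sum was the second lowest of the 15. The complex II sum, from 4 genes with no mitochondrial partner, varied by 6.19% and was highest in maternal sedentary replicate 1. Without the pair with few detected genes the mitochondrial sum spanned a fold of 2.10 and varied by 19.4%, and the sums of complexes I, III, IV and V varied by 5.42%, 6.08%, 7.07% and 5.46%.

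Ratios of mitochondrial to nuclear transcripts within a complex differed accordingly. For complex I the 5 measured mitochondrial mRNAs gave 2.57, 1.06 and 3.41 times the nuclear sum in controls, and 2.55, 2.39 and 0.97 times in maternal sedentary libraries. The ratio was 3.92, 2.5 and 2.98 in maternal exercised, 3.63, 3.26 and 1.64 in paternal sedentary and 3.27, 3.11 and 3.95 in paternal exercised libraries. The ratio of mt-Co1 to the nuclear complex IV sum was 1.92 ± 0.95 in controls (SD, n = 3) and 2.82 ± 0.23 in paternal exercised libraries. For complex I, paternal exercised libraries lay above all maternal sedentary ones and overlapped with controls. Without control replicate 2 and maternal sedentary replicate 3 the mean complex I ratio was 2.99 in the other 2 controls and 2.47 in the other 2 maternal sedentary libraries, and the complex IV ratio of the other 2 controls was 2.43.

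**Figure D5:**
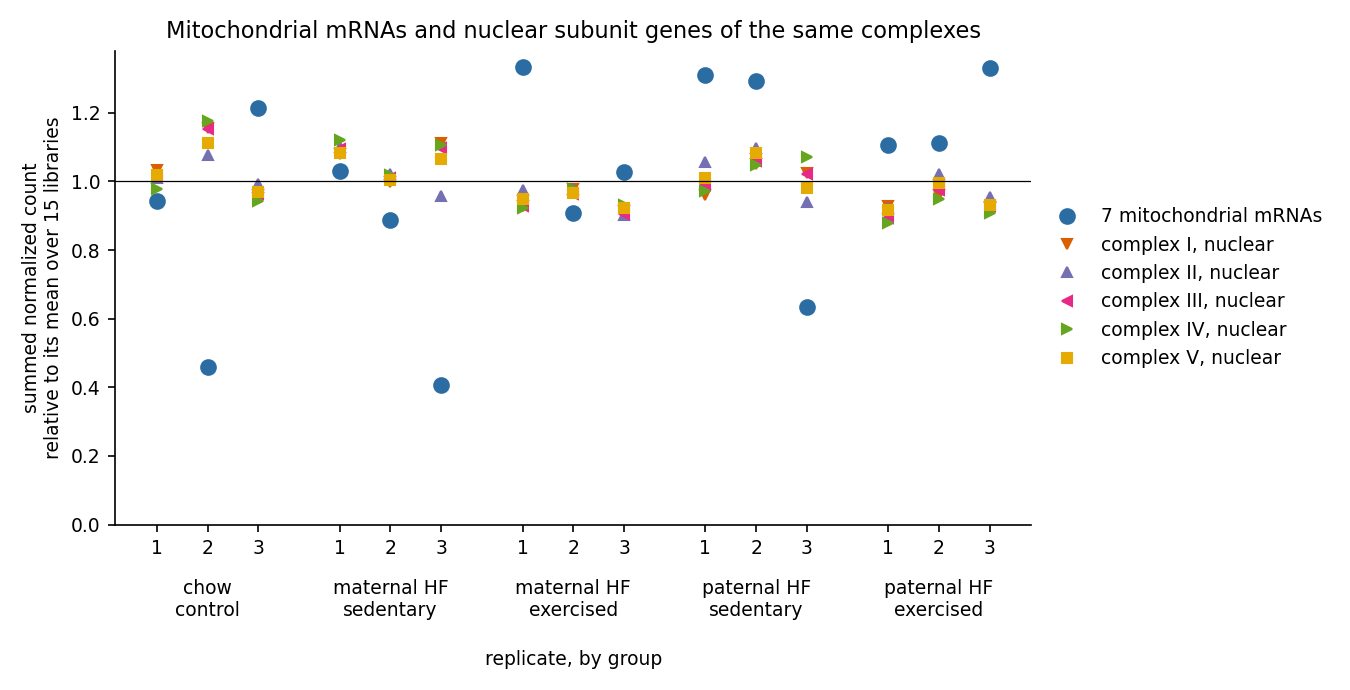
Summed normalized counts, relative to their mean over 15 libraries, of the 7 mitochondrial mRNAs (circles) and of nuclear genes for complexes I to V (other symbols), by group and replicate. The mitochondrial sum spans a fold of 3.28 and the nuclear sums folds of 1.21 to 1.34; in control replicate 2 and maternal sedentary replicate 3 the mitochondrial sum is at its lowest while 4 nuclear sums are above their mean.

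No nuclear subunit gene passed in any comparison. In each comparison of an exercised group given here, most of them had lower means where the mitochondrial genes had higher ones. The counts and medians of these lists were not computed without control replicate 2 and maternal sedentary replicate 3. The nuclear sums of complexes I, III, IV and V were the highest of the 15 in control replicate 2. In maternal sedentary replicate 3 they ranked 14, 14, 13 and 12 from the lowest. For maternal exercised against sedentary, 27 of 36 complex I genes had lower means (median -0.13), as did 6 of 9 of complex III (median -0.25), 14 of 14 of complex IV (median -0.19), 12 of 15 of complex V (median -0.18) and 4 of 4 of complex II (median -0.13). For paternal exercised against control the medians of these lists were -0.15, -0.16, -0.17, -0.15 and -0.15, with 30 of 36, 7 of 9, 13 of 14, 13 of 15 and 4 of 4 lower. Over all genes tested 6702 and 6760 of 13499 were lower. For paternal exercised against sedentary libraries 36 of 36, 8 of 9, 14 of 14, 14 of 15 and 4 of 4 were lower, in the same order of lists. For maternal exercised against control 33 of 36, 7 of 9, 13 of 14, 13 of 15 and 4 of 4 were lower. Of all genes, 51.8% and 52.5% had higher means in these 2 comparisons. Sedentary groups against control were mixed: for the paternal group 5 of 9 complex III genes had higher means (median 0.02) and 21 of 36 complex I genes lower ones (median -0.03). Ndufs1, a core subunit of complex I, differed by 0.06 in the maternal exercise comparison, Uqcrc1 of complex III by -0.25, Cox4i1 of complex IV by -0.21 and Atp5b, the catalytic subunit of complex V, by -0.10.

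Genes that act on mitochondrial DNA and RNA did not pass either. Of 16 measured genes for maintenance and transcription, 9 had higher means with maternal exercise (median 0.13), and of 22 for RNA processing and decay 15 did (median 0.12). Polrmt averaged 1361 ± 169 normalized counts in maternal sedentary and 1115 ± 52.2 in maternal exercised libraries (SD, n = 3). Tfam, which packages mitochondrial DNA and starts its transcription, averaged 615 ± 55.5 and 658 ± 88, and Tfb2m 391 ± 11 and 370 ± 11.8. Lrpprc, which stabilises mitochondrial mRNAs, averaged 1760 ± 127 and 1925 ± 142, and in paternal exercised against control libraries 2013 ± 139 against 1708 ± 102.

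No nuclear regulator and no enzyme that charges mitochondrial tRNAs passed. Of 14 regulators 6 had higher means with maternal exercise (median -0.05). Of 17 tRNA ligases 11 had lower means (median -0.12), 3 of them with an unadjusted p under 0.05 by limma, against 9.54% of all genes. Such a p, always with a lower mean, was also found for 9 of 36 complex I and 4 of 9 complex III subunit genes. It was found for 4 of 14 of complex IV, 4 of 15 of complex V and 0 of 4 of complex II. Among regulators 1 gene with a higher and 2 with lower means had it, as did 1 of 22 RNA processing and 0 of 16 maintenance genes. The coactivator Ppargc1a, a regulator of mitochondrial gene programmes, averaged 669 ± 134 in maternal sedentary and 483 ± 216 in maternal exercised libraries. It averaged 584 ± 195 in controls, 633 ± 212 in paternal sedentary and 529 ± 163 in paternal exercised libraries, and its difference with maternal exercise, -0.54, had an adjusted p (limma) of 0.554.

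Fibre type markers are given beside these results because slow fibres are known to be rich in mitochondria. The 9 slow fibre markers summed to 1153 to 5608 CPM in controls, 3118 to 5099 in maternal sedentary, 2078 to 4930 in maternal exercised, 3139 to 5645 in paternal sedentary and 662 to 3565 in paternal exercised libraries. The paternal exercised replicates stood at 662, 3565 and 3565 CPM (mean 2597) and the controls at 1153, 3587 and 5608 (mean 3449), so that each group held 1 low library. Compared with controls, 9 of 9 slow markers had lower means in paternal exercised libraries (median -0.60), with none past an adjusted p of 0.05 by limma. Against paternal sedentary libraries 9 of 9 slow markers had lower means (median -1.16), with none past an adjusted p of 0.05 by limma. With maternal exercise 9 of 9 also had lower means than in maternal sedentary libraries (median -0.40). Compared with controls, 9 of 9 had higher means in maternal sedentary (median 0.57), maternal exercised (median 0.17) and paternal sedentary libraries (median 0.51). None of these passed either. Of all genes, 49.9% to 53% had higher means in these comparisons. The 10 fast fibre markers overlapped in all groups, between 172561 and 245707 CPM. Markers of other cells differed as well, with none past an adjusted p of 0.05 by limma. The 5 erythrocyte markers were lower in paternal sedentary libraries (33.1 to 65.1 CPM) than in controls (53.5 to 128; 5 of 5 lower, median -1.09), and higher in paternal exercised ones (65.1 to 135; 5 of 5 higher than in paternal sedentary, median 1.09), each with an unadjusted p under 0.05. The 6 fibroblast markers had higher means in maternal exercised than in sedentary libraries (6 of 6, median 0.73), and maternal exercised replicate 3 stood at 1619 CPM against 203 to 456 in the other 14 libraries. The 7 Schwann cell markers had lower means in paternal exercised libraries (116 to 160 CPM) than in controls (141 to 332, with 7 of 7 lower, median -0.70). Of these, 4 had an unadjusted p under 0.05 by limma, against 13.7% of all genes. The part of fibre type and of these cells in the mitochondrial values was not tested.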

How the data were processed

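RNA of quadriceps muscle was sequenced by the authors as 100-base single-end reads from stranded libraries depleted of ribosomal RNA, per the labels' protocols. Build mm10 and the tools STAR 2.5.2b, featureCounts 1.5.2 and DESeq2 1.11.8 are named in the submitters' processing notes. Values in the deposited table are a signal, read counts that the authors divided by a size factor per library, as deduced from the values: each was a whole multiple of 1 step per library (tolerance 0.001 of a read, 100% of the values), which gave back whole reads. In the 1 column whose step was close to 1, the values were also read in this way.

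Genes were matched by identifier to GENCODE M21 (GRCm38; 50376 of 50686, 99.4%), the source of coordinates and printed sequences. No genome sequence was used, so the search for 100-base windows, planned on a genome, was run on the annotated transcripts. Groups came from the group label, and replicate numbers follow accession order and pair nothing. The main test was two-sided, by limma 3.58.1 under R 4.3.3 (functions lmFit, contrasts.fit and eBayes with its trend option), on log2 values after a pseudocount of 1 was added to the normalized count, and took the 13499 genes that averaged at least 10. Differences on that scale understate those of low genes. P-values were adjusted by Benjamini-Hochberg within a comparison, with a threshold of 0.05. Alternatives were edgeR 4.0.16, DESeq2 1.42.0 and limma voom on the whole reads, other filters, pseudocounts and scalings, and fits without single replicates, without libraries above 100 CPM of hepatocyte markers or under 18000 detected genes, and with the first part of the sample title code, of unstated meaning, as a covariate. In counts simulated for the comparison of maternal sedentary with control libraries (13499 genes) limma recovered 47% of 100 genes with a set fold of 2 and 77% of 100 with a set fold of 4, and called 5 unchanged genes. Replicates compared in pairs gave a chi-square of 16.3 to 78.8 per degree of freedom, so none was counted as a copy. Figures were drawn with matplotlib 3.10.9.

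The genes followed, the gene and marker lists and the libraries left out were chosen with earlier results of these data known. Every measured mitochondrial gene is named, with Polrmt, Tfam, Tfb2m, Lrpprc, Ppargc1a, Ndufs1, Uqcrc1, Cox4i1, Atp5b and the nuclear copies; mt-Tl1 is named as the highest unmeasured tRNA.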

Additional observations from a re-analysis of the deposited data

How the results depend on the processing

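No measured mitochondrial gene passed under any alternative: of 2288 values of a gene in a comparison under a setting, 0 passed, and the lowest adjusted p was 0.158 (limma; mt-Rnr2, paternal exercised against control without control replicate 3). The number of genes called over the whole table did move. With DESeq2 it was 18 for maternal sedentary against control, 60 for maternal exercised against sedentary, 1 for paternal exercised against sedentary, 65 for paternal exercised against control and 186 for any difference, against 0 with limma, edgeR and limma voom. With the title code as a covariate it was 16 for maternal and 11 for paternal exercise and 1 for the difference between these effects. That fit rests on few libraries: within a code, maternal exercised replicate 3 alone stood against 3 sedentary libraries, and paternal exercised replicate 2 alone against 2, each lone library being assumed to vary like the others. It could not give the maternal groups against control. Leaving out single replicates gave 0 to 109 genes for maternal exercised against sedentary (109 without maternal sedentary replicate 1) and 0 to 1 for maternal sedentary against control, paternal exercised against sedentary and paternal exercised against control. The cause was not tested.

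The difference of mt-Tp for maternal exercise turned to -0.28 with the title code, where it is the difference of maternal exercised replicate 3 alone, and to -0.19 without maternal exercised replicate 1 (-0.19 to 0.34 over single replicates left out). Median differences kept their sign in 30 of 30 alternatives for maternal exercised against sedentary (0.09 to 0.86) and paternal exercised against control (0.17 to 0.90), and in 29 of 29 for maternal exercised against control (0.05 to 0.79). They turned in 3 of 30 for paternal sedentary against control (-0.20 to 0.77) and the difference between exercise effects (-0.30 to 0.73), and in 2 of 30 for paternal exercised against sedentary (-0.19 with the title code) and 2 of 29 for maternal sedentary against control. All these counts include limma fits with another gene filter or without a library of a group outside the comparison. Such a fit leaves the median as it was and could not turn its sign, so the counts overstate how often the sign was put to a test. Scaling to total reads moved the median of all genes to 0.11 for maternal exercise, 0.10 for paternal sedentary against control and 0.19 for the difference between exercise effects, and relative to that shift the medians of the 11 genes were 0.60, 0.41 and 0.40. No paired analysis was possible because replicate numbers follow accession order; the only label shared across groups is the title code, of unstated meaning, whose fit is given above. Leaving out the libraries with few detected genes was an alternative chosen after seeing the data. It moved the share of controls from 2.55% to 3.17% and that of maternal sedentary libraries from 2.22% to 2.78%. Both moves were under 1 SD of the group, but leaving out 1 of 3 libraries can never move a mean further, so that limit tests nothing.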
